A study of Mus musculus with 12 samples.

Results

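The step from the 4- to 8-cell embryo to the morula and blastocyst was examined in untreated mouse embryos of the ICR strain. It was taken from 4 of the 12 arrays of the series, chosen by their titles alone: replicates 1 and 2 of control embryos at day 2.5, given as 4 to 8 cells, and replicates 1 and 2 of control embryos at day 3.5, given as morula to blastocyst. The other 8 arrays hold control embryos at day 1.5 (2 cells), embryos arrested at 4 cells by day 2.5 in 20 µM U0126, which blocks the kinases MEK1 and MEK2 above ERK, and embryos released from that arrest at day 3.5 (8 cells) and at day 4.5 (again morula to blastocyst), each group on 2 arrays. All groups share the strain and carry no genetic change in the labels, and the control groups carry no treatment. Each array holds RNA of whole embryos, so a change can come from fewer cells of a type or from less RNA per cell, which cannot be told apart. The number of embryos behind an array, and whether they were cultured, are not given in the labels. The series text speaks of 2 independent experiments, and the labels do not say that replicates came from separate animals, so the p-values cover only the spread among these arrays, which may be of technical origin.

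During this day the 8-cell embryo compacts: its cells flatten on each other through E-cadherin, and the outer ones acquire an apical surface and sealed junctions. The outer cells become trophectoderm, an epithelium that pumps ions and water inward to form the blastocoel and that later attaches to the uterus. The inner cells stay pluripotent and later split into epiblast and primitive endoderm. In parallel the embryo turns from pyruvate to a wider use of glucose and lipid, and the last transcripts stored in the oocyte are cleared.

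Values are log2(intensity + 1) per gene, and a level under 5 is taken as close to background. The replicates correlated over the 9930 genes tested with r = 0.977 at day 2.5 and r = 0.978 at day 3.5, against 0.886 to 0.926 between arrays of the 2 days. Of the 18194 named genes on the array, tested or not, between 7744 and 8289 lay at or above a level of 5 on each of these 4 arrays. The 2 day 3.5 arrays differed in genes called in the released step. Of 732 genes that rose from released day 3.5 to released day 4.5, a step measured on other arrays, 617 stood higher in replicate 1 than in replicate 2 of control day 3.5, with a median difference of 0.47. Of 633 genes that fell in that released step, 514 stood lower in replicate 1, with a median difference of -0.34. Over all genes 56.3% stood higher in replicate 1, with a median of 0.07. What set these arrays apart was not tested, and their RNA quality values, given with the markers, differed too. Results are therefore given with counts from fits that leave out each of the 4 arrays in turn. Calls that held in the fit of all arrays and in those 4 fits are called held below. Same-numbered samples deviated together, so counts from a fit with the replicate number as a block are given where they moved by more than 1.5 times, and likewise counts with each array centred on its median. Counts given in a row of 4 follow the order day 2.5 replicate 1, day 2.5 replicate 2, day 3.5 replicate 1, day 3.5 replicate 2 as the array left out, and those 4 fits are called the smaller fits.

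Genes of the embryo list reached a level of 5, as did 1 gene of the cumulus list and 3 of the oviduct list. All 12 genes of a preimplantation embryo list lay at or above a level of 5 on at least 1 of the 4 arrays. Of 13 cumulus and granulosa cell genes, 1 did so, Amhr2, the receptor of anti-Müllerian hormone, which lay at 10.17 and 10.39 at day 2.5 and at 7.34 and 7.93 at day 3.5. The summed intensity of that list was 1256 and 1435 at day 2.5 and 242 and 331 at day 3.5. Of 9 oviduct genes Ovgp1, Rsph1 and Wfdc2 reached the level, with summed intensities of 131, 159, 212 and 171 over the 4 arrays. Of these, Wfdc2, a secreted protease inhibitor, rose from 2.90 and 3.45 to 6.93 and 5.89 (3.23 ± 0.50, limma adjusted p = 0.00195). Rsph1, a protein of motile cilia, lay at 5.07 and 5.57 and then at 4.40 and 4.23 (-1.001 ± 0.31, adjusted p = 0.0408), a call that ended without any of the 4 arrays. None of 10 sperm, 9 blood and immune cell or 10 fibroblast genes reached a level of 5, and their highest levels were 4.35, 4.59 and 4.65. RNA quality, read as the level of the 3′ minus that of the 5′ control probe set of Gapdh, was 3.20 and 3.04 at day 2.5 and 2.90 and 3.69 at day 3.5. For Actb it was 3.25 and 4.47 at day 2.5 and 2.41 and 4.10 at day 3.5, so that replicate 2 lay above replicate 1 on both days. The part of these differences in the results was not tested.

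Of the 9930 genes, 2148 (21.6%) passed limma's moderated test at an adjusted p of 0.05. Higher at day 3.5 were 1326 (13.4%) and lower were 822 (8.28%). The median rise was 1.59 and the median fall -1.50, and 384 rises and 207 falls reached 2 log2 units. The counts of calls with each array left out were 1133, 1049, 677 and 1565, so every array but replicate 2 of day 3.5 moved the count by more than 1.5 times. Held calls numbered 603 (6.07%), of which 386 (3.89%) were rises and 217 (2.19%) falls. Of the rises, 419 started from under 5 on both day 2.5 arrays, and 184 falls ended under 5 on both day 3.5 arrays, so their size rests in part on signal near background. Most calls were rises (61.7%) with the values as deposited, but 45.4% were with each array centred on its median, which moved the median of all genes from 0.09 to -0.12.

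**Figure D1:**
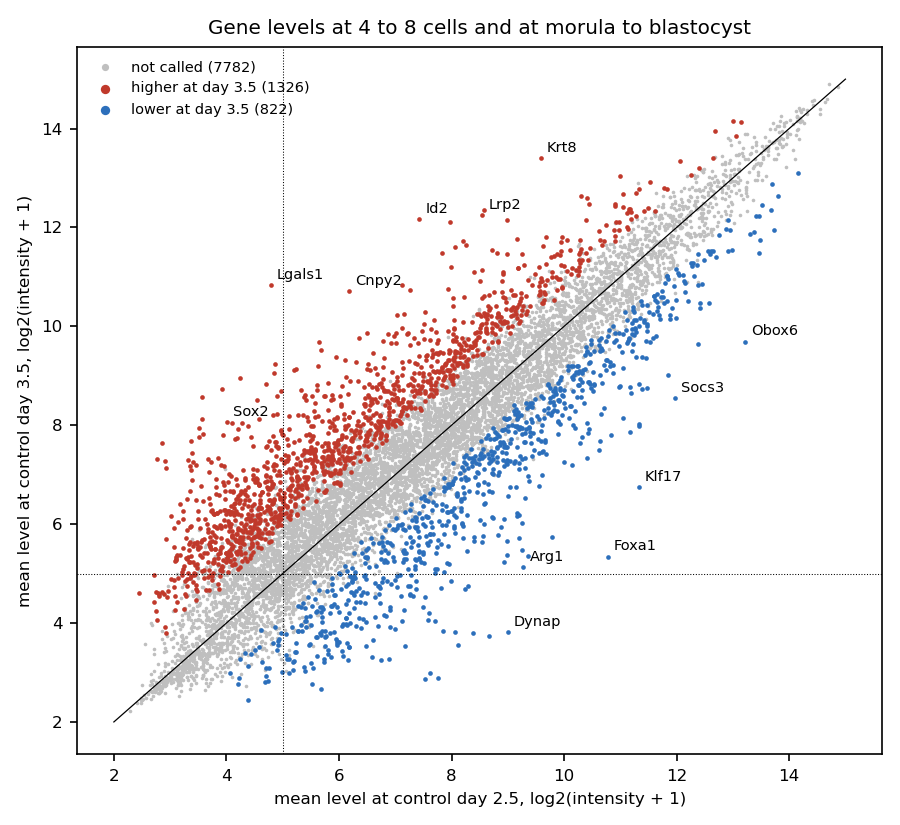
Mean level of 9930 genes on the 2 control day 2.5 arrays (x axis) and on the 2 control day 3.5 arrays (y axis), both as log2(intensity + 1). Red points are the 1326 genes called higher and blue points the 822 called lower by limma; the diagonal marks equal levels and dotted lines the level of 5. Krt8 and Id2 stand high above the diagonal and Foxa1 and Klf17 far under it.

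Lgals1, which encodes the carbohydrate-binding protein galectin-1, rose most once levels under 5 were set to 5. It lay at 5.16 and 4.41 at day 2.5 and at 11.79 and 9.87 at day 3.5, a difference of 6.05 ± 0.76 (SE, n = 2 per group; limma adjusted p = 8.06e-04). Both day 3.5 arrays stood far above both day 2.5 arrays, with replicate 1 the higher. Id2, an inhibitor of basic helix-loop-helix factors found in trophectoderm, went from 7.87 and 6.996 to 12.78 and 11.56 (4.74 ± 0.44, adjusted p = 2.11e-04). Cnpy2, a protein of the endoplasmic reticulum, went from 6.61 and 5.75 to 10.93 and 10.50 (4.54 ± 0.37, adjusted p = 1.35e-04). The arrays of the 2 days did not overlap for either gene, as was so for 67.3% of all genes and for all 2148 called genes. The other 12 of the 15 largest rises were Rab17, Gapdh, 2610528J11Rik, Elovl7, Adh1, Gsn, Ezr, Glrx, Dsg2, Krt8, Krt18 and Laptm5. Rab17, a small GTPase of polarised epithelial cells, went from 5.56 and 4.15 to 9.61 and 8.88. Laptm5, a lysosomal membrane protein best known from blood cells, went from 3.64 and 4.19 to 9.08 and 8.39. The probe sets of a gene did not always give one size: 3 of Cnpy2 differed by 0.37 to 4.54 and those of Laptm5 by 0.36 and 4.82. With the mean over a gene's probe sets in place of the brightest, the differences were 2.27 for Cnpy2, 1.15 for Laptm5 and 3.10 for Id2. By that measure 7 of the 30 largest rises and falls were more than 1.5 times smaller, and all 30 kept their sign and their call. No gene of the blood and immune cell list lay above 4.59 on any of these arrays.

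Adh1, an alcohol dehydrogenase, lay at 4.29 and 4.20 and then at 9.65 and 8.26. Elovl7, which lengthens fatty acids, lay at 5.54 and 5.73 and then at 9.66 and 9.71. Glrx, which reduces protein disulfides with glutathione, lay at 5.06 and 4.36 and then at 9.73 and 7.95. Of the 15 largest rises, 14 stood higher in replicate 1 than in replicate 2 of day 3.5, and Elovl7 was the exception. Each of them was called with any of the 4 arrays left out, as the rule that named them required.

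Foxa1, a forkhead factor that opens chromatin in endoderm, fell most. It lay at 10.45 and 11.10 at day 2.5 and at 4.07 and 6.61 at day 3.5 (-5.43 ± 0.74, adjusted p = 0.00116). Klf17, a Krüppel-like factor of the oocyte and early embryo, went from 11.19 and 11.46 to 6.40 and 7.10 (-4.57 ± 0.45, adjusted p = 2.79e-04). Arg1, which splits arginine into ornithine and urea, went from 9.62 and 8.93 to 4.30 and 5.96 (-4.14 ± 0.51, adjusted p = 7.00e-04). Groups did not overlap for these genes, as was so for all 2148 called genes, and the day 3.5 replicates lay 0.70 to 2.54 apart. Socs3, which restrains signalling from cytokine receptors to STAT factors, went from 11.88 and 12.05 to 7.33 and 9.76. Ficd, which modifies the chaperone BiP, went from 8.79 and 9.61 to 5.06 and 6.39. Dynap went from 9.23 and 8.77 to 3.44 and 4.20. The remaining 9 of the 15 largest falls were Gm11544, Tmem229b, Enpp3, Omt2b, Khdc1b, Obox6, Spz1, Sp110 and Dusp26. For 14 of the 15 falls the lower day 3.5 value was that of replicate 1, and Omt2b was the exception.

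**Figure D2:**
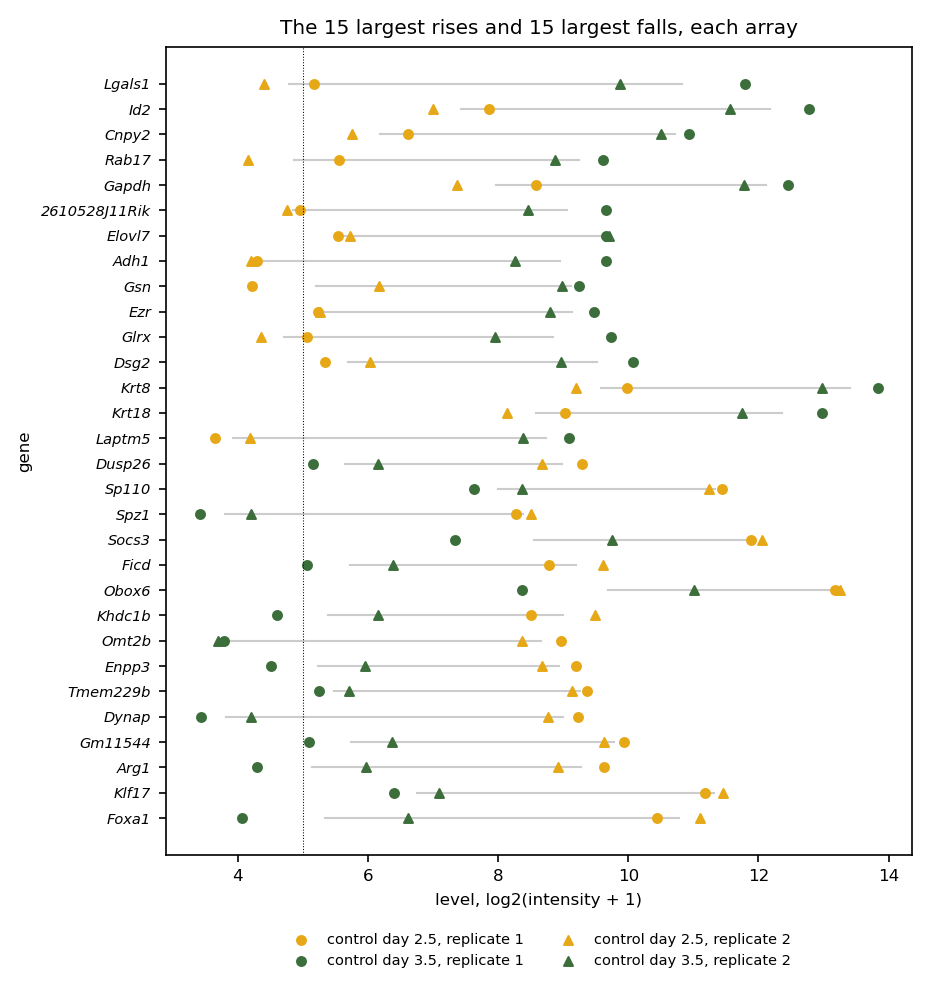
Level of the 15 largest rises and the 15 largest falls on each of the 4 arrays, as log2(intensity + 1). Genes are ordered by the difference of group means after raising means under 5 to 5. Day 2.5 is yellow and day 3.5 green, circles are replicate 1 and triangles replicate 2, grey bars join the group means and the dotted line marks a level of 5. In 14 of 15 rises and 14 of 15 falls replicate 1 of day 3.5 lies farther from day 2.5 than replicate 2.

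A smaller set passed from near background to a clear level. In all, 30 genes lay under 5 on both day 2.5 arrays and at or above 7 on both day 3.5 arrays. Among them was Sox2, a core pluripotency factor, at 3.85 and 4.15 and then at 8.80 and 7.32. Mymx, a small membrane protein known from myoblast fusion, lay at 3.39 and 3.74 and then at 8.49 and 8.65. Tpp1, a lysosomal peptidase, lay at 3.01 and 2.71 and then at 7.96 and 7.32. Ppargc1b, a coactivator of mitochondrial genes, lay at 4.43 and 3.76 and then at 8.03 and 8.08. Slc28a3, a nucleoside carrier, lay at 4.69 and 4.97 and then at 8.21 and 8.21, and Slc15a2, a peptide carrier, at 3.43 and 3.36 and then at 7.72 and 7.15. Of the 30, 24 were also under 5 on both day 1.5 arrays, 17 were under 5 on both arrays of the U0126-arrested embryos and 27 were at or above 7 on both released day 4.5 arrays. The opposite passage, from at or above 7 to under 5, was made by 16 genes. Brdt, a bromodomain protein of germ cells, lay at 7.12 and 7.23 and then at 3.71 and 3.36, and Exoc3l2 lay at 7.59 and 7.64 and then at 3.15 and 2.81. Of these 16, 11 were at or above 7 on both day 1.5 arrays, 13 on both U0126 arrays, and 12 were under 5 on both released day 4.5 arrays. Other probe sets of Slc15a2 and Brdt changed less, with differences down to 0.76 and -0.66. The genes named from these sets were chosen after their values were seen.

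More trophectoderm factors rose than fell. Of 24 tested, 10 were higher and 3 lower, beside 13.4% and 8.28% of all genes, and the median difference was 0.99 beside 0.09. In the 4 smaller fits 8, 8, 7 and 10 were higher and 3 lower each time, and 5 were lower with the replicate block. Eomes, a T-box factor of trophoblast, lay at 4.78 and 5.02 and then at 9.19 and 8.00 (3.70 ± 0.64, adjusted p = 0.00330). Gata3, a zinc finger factor that drives trophectoderm genes, lay at 7.74 and 6.51 and then at 10.40 and 9.53 (2.84 ± 0.42, adjusted p = 0.00175). Cdx2, the homeobox factor of trophectoderm, lay at 7.69 and 7.13 and then at 9.81 and 9.50 (2.25 ± 0.35, adjusted p = 0.00207). In each of these genes both day 3.5 arrays stood above both day 2.5 arrays, and the groups did not overlap in any of the 2148 called genes. Tfap2a, of the AP-2 family, rose from 4.80 and 5.74 to 9.19 and 7.21. Bmyc rose from 3.76 and 3.05 to 8.02 and 6.48 and Klf6 from 4.15 and 5.03 to 8.55 and 7.69. The 5 Klf6 probe sets differed by 0.48 to 3.56. Elf3, an epithelial ETS factor, differed by 3.09 ± 0.81 (adjusted p = 0.0218), but not without day 2.5 replicate 2 (adjusted p = 0.151) or day 3.5 replicate 1 (adjusted p = 0.158).

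The 3 members that fell were Sox15, Id3 and Cebpa. Sox15, an SRY-box factor, went from 10.91 and 10.35 to 6.85 and 8.16 (-3.12 ± 0.48, adjusted p = 0.00195). Id3, a relative of Id2, went from 8.72 and 7.68 to 5.74 and 5.70 (-2.48 ± 0.41, adjusted p = 0.00253). Id2 and Id3 thus moved in opposite directions. Cebpa, a leucine zipper factor, went from 7.71 and 7.75 to 5.11 and 5.71. Tead4, the DNA-binding partner of YAP in trophectoderm, lay at 10.59 and 9.55 and then at 9.30 and 8.95, and its difference of -0.95 ± 0.47 did not pass (adjusted p = 0.178), but passed with the replicate block (adjusted p = 0.0403) and with the mean over probe sets (adjusted p = 0.0399).

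Pluripotency factors did not move one way. Of 25 tested, 4 were higher and 5 lower, with a median of -0.19. The 4 smaller fits gave 3, 3, 3 and 4 higher and 3, 3, 1 and 4 lower. Sox2 rose by 4.06 ± 0.59 (adjusted p = 0.00152), and Nanog, a homeobox factor of the inner cell mass, rose from 8.56 and 8.23 to 11.25 and 10.93 (2.70 ± 0.32, adjusted p = 5.86e-04). L1td1, an RNA-binding protein of pluripotent cells, rose from 7.86 and 6.80 to 10.10 and 9.43. Klf2, a Krüppel-like factor of the naive state, fell from 10.53 and 10.30 to 7.25 and 8.44 (-2.57 ± 0.38, adjusted p = 0.00163). The other 4 falls did not hold with every array left out. Esrrb, an orphan nuclear receptor, differed by -1.73 ± 0.47 (adjusted p = 0.0264), and the adjusted p was 0.0986, 0.101, 0.103 and 0.111 with each array left out. Nr5a2 differed by -1.31 ± 0.26 (adjusted p = 0.00614, and 0.0680 without day 3.5 replicate 1). Klf4 differed by -1.56 ± 0.38 (adjusted p = 0.0153, and 0.103, 0.0945 and 0.0569 without day 2.5 replicate 2, day 3.5 replicate 1 and day 3.5 replicate 2). Prdm14 differed by -1.77 ± 0.49 (adjusted p = 0.0276, and 0.173 and 0.197 without replicate 1 of day 2.5 and of day 3.5). Pou5f1, which encodes OCT4, lay at 11.42 and 10.53 and then at 11.29 and 10.89 (0.11 ± 0.46, adjusted p = 0.892), and its sign turned with median centring.

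Among 14 primitive endoderm genes 3 were higher and 3 lower, and the median of 0.08 turned to -0.13 with median centring. Each share was 21.4%, beside 13.4% higher and 8.28% lower of all genes. Lrp2, the endocytic receptor megalin, rose from 9.25 and 7.83 to 12.54 and 11.95 (3.71 ± 0.43, adjusted p = 5.42e-04). Gata4 fell from 6.32 and 5.41 to 3.44 and 3.17 (-2.56 ± 0.45, adjusted p = 0.00349), ending near background. With means under 5 raised to 5 its difference was -0.86, beside -5.43 for Foxa1. Gata6, at 11.08 and 10.56 and then at 10.23 and 10.11, differed by -0.65 ± 0.43 (adjusted p = 0.316). In the smaller fits 3, 1, 2 and 1 of the list were higher and 3, 2, 2 and 3 lower, and 5 were lower with the replicate block.

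Several epithelial lists held rises and few or no falls. Of 15 genes of keratins and desmosomes, 8 were higher and none lower, with a median of 1.06. These shares were 53.3% and 0%, beside 13.4% and 8.28% of all genes. The smaller fits gave 5, 6, 5 and 5 higher, moved by more than 1.5 times without day 2.5 replicate 1 and without either day 3.5 array. Krt8 and Krt18 encode the paired keratins of simple epithelia. Krt8 lay at 9.98 and 9.19 and then at 13.84 and 12.98 (3.82 ± 0.42, adjusted p = 4.86e-04). Krt18 lay at 9.02 and 8.13 and then at 12.98 and 11.75 (3.78 ± 0.59, adjusted p = 0.00197). Neither gene's arrays overlapped between the days, as was so for all 2148 called genes, and the differences of the pair were nearly equal. Dsp, the desmosomal linker to keratin filaments, rose from 6.79 and 7.43 to 11.26 and 10.40. Dsg2, a desmosomal cadherin, rose from 5.34 and 6.04 to 10.08 and 8.97, and Dsc2, its partner, from 4.03 and 3.88 to 7.84 and 6.50. Of 3 Krt8 probe sets at the level all rose, by 3.48 to 3.82.

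The promoters of Krt8, Krt18, Dsp and the trophectoderm factor Gata3 are shown, with the GCCNNNGGC core that AP-2 proteins bind. Tfap2a, which encodes an AP-2 protein, rose too, and its part in the changes of these genes was not tested. Each is the 250 bases before the RefSeq start site in GRCm38.p6, written 5′ to 3′ on the gene's strand, with matches to that core in capitals. The core reads the same on both strands. Krt8 is at chr15:102004343-102004592 (minus strand), Krt18 at chr15:102027966-102028215 (plus), Dsp at chr13:38151044-38151293 (plus) and Gata3 at chr2:9878601-9878850 (minus).
Krt8: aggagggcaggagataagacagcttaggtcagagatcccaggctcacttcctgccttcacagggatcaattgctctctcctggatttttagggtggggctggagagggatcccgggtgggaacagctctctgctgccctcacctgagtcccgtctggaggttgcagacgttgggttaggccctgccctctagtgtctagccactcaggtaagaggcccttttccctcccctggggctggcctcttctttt
Krt18: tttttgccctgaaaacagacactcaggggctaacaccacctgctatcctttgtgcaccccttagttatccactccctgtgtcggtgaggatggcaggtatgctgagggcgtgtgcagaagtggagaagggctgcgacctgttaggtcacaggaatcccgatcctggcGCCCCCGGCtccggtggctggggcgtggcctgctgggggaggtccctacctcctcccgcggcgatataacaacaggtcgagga
Dsp: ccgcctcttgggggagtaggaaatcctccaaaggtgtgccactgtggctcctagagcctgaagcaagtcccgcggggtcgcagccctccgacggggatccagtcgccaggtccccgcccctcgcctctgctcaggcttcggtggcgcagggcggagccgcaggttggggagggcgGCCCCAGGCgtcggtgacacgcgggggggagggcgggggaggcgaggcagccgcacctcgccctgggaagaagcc
Gata3: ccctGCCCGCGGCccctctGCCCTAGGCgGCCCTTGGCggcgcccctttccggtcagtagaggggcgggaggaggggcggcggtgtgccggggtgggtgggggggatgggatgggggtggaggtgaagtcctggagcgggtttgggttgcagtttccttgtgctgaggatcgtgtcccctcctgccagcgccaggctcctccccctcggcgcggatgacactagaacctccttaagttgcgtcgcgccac
Krt18 and Dsp held 1 match each, Gata3 held 3 and Krt8 held 0. Of all 27025 RefSeq promoters of this length, 13.6% held the core. Among promoters of the genes tested it was 21.1% of 8157, among those of genes higher at day 3.5 21.3% of 1088, and among those of genes lower at day 3.5 23.6% of 661. A match is a description of the letters and not a measured site.

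Tight junction genes had 6 of 22 higher and 1 lower (median 0.88), and 2 rises held. Marveld3, a tetraspan junction protein, rose from 5.48 and 5.23 to 8.06 and 8.34 (2.85 ± 0.26, adjusted p = 1.91e-04). Cldn6, a claudin of embryonic epithelia, rose from 4.19 and 3.74 to 7.34 and 6.25. With each array left out 4, 2, 2 and 5 of the list were higher and 0, 0, 0 and 1 lower, and with the replicate block 10 were higher. Of 26 genes of adherens junctions and adhesion, 4 were higher and 4 lower (15.4% each, beside 13.4% and 8.28% of all genes). Epcam, an epithelial adhesion molecule, rose from 8.44 and 8.09 to 12.09 and 11.19 (3.38 ± 0.42, adjusted p = 7.50e-04) and Sdc4, a cell-surface proteoglycan, from 8.67 and 8.76 to 11.63 and 11.47. Cdh1, which encodes E-cadherin, lay at 10.64 and 10.82 and then at 11.50 and 11.19, and its difference of 0.61 ± 0.31 did not pass (adjusted p = 0.190). With each array left out 2, 2, 2 and 3 of the adhesion list were higher and 2, 1, 0 and 3 lower, with the replicate block 8 and 5, and with median centring 2 and 5.

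Of 38 genes of actin and the apical cortex, 18 were higher and none lower, with a median of 0.93 and 32 positive differences. These shares were 47.4% and 0%, beside 13.4% and 8.28% of all genes, whose median was 0.09. Leaving out the arrays in turn gave 10, 11, 8 and 12 higher, and median centring gave 11. Ezr encodes ezrin, which ties actin to the membrane of microvilli, and rose from 5.23 and 5.26 to 9.48 and 8.80 (3.90 ± 0.44, adjusted p = 5.22e-04). Its other probe set differed by 0.38, and the mean over its probe sets by 2.14. Gsn, which severs filaments, rose from 4.22 and 6.17 to 9.24 and 8.99. Slc9a3r1, a scaffold bound by ezrin, rose from 6.81 and 6.75 to 9.87 and 9.53. Lcp1, an actin bundler also known from leukocytes, rose from 5.35 and 3.72 to 9.48 and 7.55, and Myo5b, a vesicle motor, from 5.04 and 4.94 to 8.07 and 7.57. The 3 Myo5b probe sets disagreed, with differences from -0.20 to 2.83. Actb, beta-actin, differed by 0.98 ± 0.27 (adjusted p = 0.0262), but the call ended with median centring (adjusted p = 0.0540), with the mean over probe sets (adjusted p = 0.135) and without either day 2.5 array or day 3.5 replicate 1, and 1 of its 5 probe sets went the other way.

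Of 16 annexins, S100 proteins and galectins, 7 were higher and none lower (3, 6, 3 and 6 with each array left out; median 0.98). The shares of this list were 43.8% and 0%, beside 13.4% and 8.28% of all genes. Anxa2, a calcium-dependent membrane binder, rose from 8.53 and 8.47 to 10.95 and 10.87 (2.41 ± 0.35, adjusted p = 0.00161). Its replicates lay 0.06 apart at day 2.5 and 0.08 at day 3.5. Of 22 basement membrane and collagen genes 6 were higher and none lower (5, 5, 2 and 6; median 0.67). The share of matrix genes that were higher was 27.3%, beside the 13.4% of all genes. Col4a1 and Col4a2 encode the chains of type IV collagen. Col4a1 rose from 6.63 and 6.98 to 8.72 and 8.72 (1.91 ± 0.27, adjusted p = 0.00128) and Col4a2 from 4.26 and 4.00 to 6.95 and 5.70 (2.19 ± 0.40, adjusted p = 0.00408). Lama3, a laminin chain, rose from 3.19 and 2.62 to 7.52 and 7.05.

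Among the called genes of blastocoel ion and water transport falls outnumbered rises, but the list as a whole did not move one way. Of 11 tested, 1 was higher and 4 lower (9.09% and 36.4%, beside 13.4% and 8.28% of all genes). In all 5 differences were positive, the median was -0.06, and 13 more genes on the array stayed under the filter. With each array left out 1 was higher each time and 3, 3, 2 and 3 were lower. Atp1b1, the beta subunit of the sodium pump, rose from 9.35 and 9.03 to 11.50 and 10.87 (2.00 ± 0.32, adjusted p = 0.00228). Atp1b3, another beta subunit, differed by -1.17 ± 0.36 (adjusted p = 0.0431), a call that ended without day 2.5 replicate 1 or either day 3.5 array. Slc12a2, a sodium, potassium and chloride cotransporter, fell from 12.33 and 12.42 to 8.96 and 10.31 (-2.74 ± 0.39, adjusted p = 0.00139). Aqp11, a water channel of inner membranes, fell from 6.61 and 6.82 to 5.03 and 4.45. Aqp3, a water and glycerol channel, differed by 0.39 ± 0.49 (adjusted p = 0.609).

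**Figure D3:**
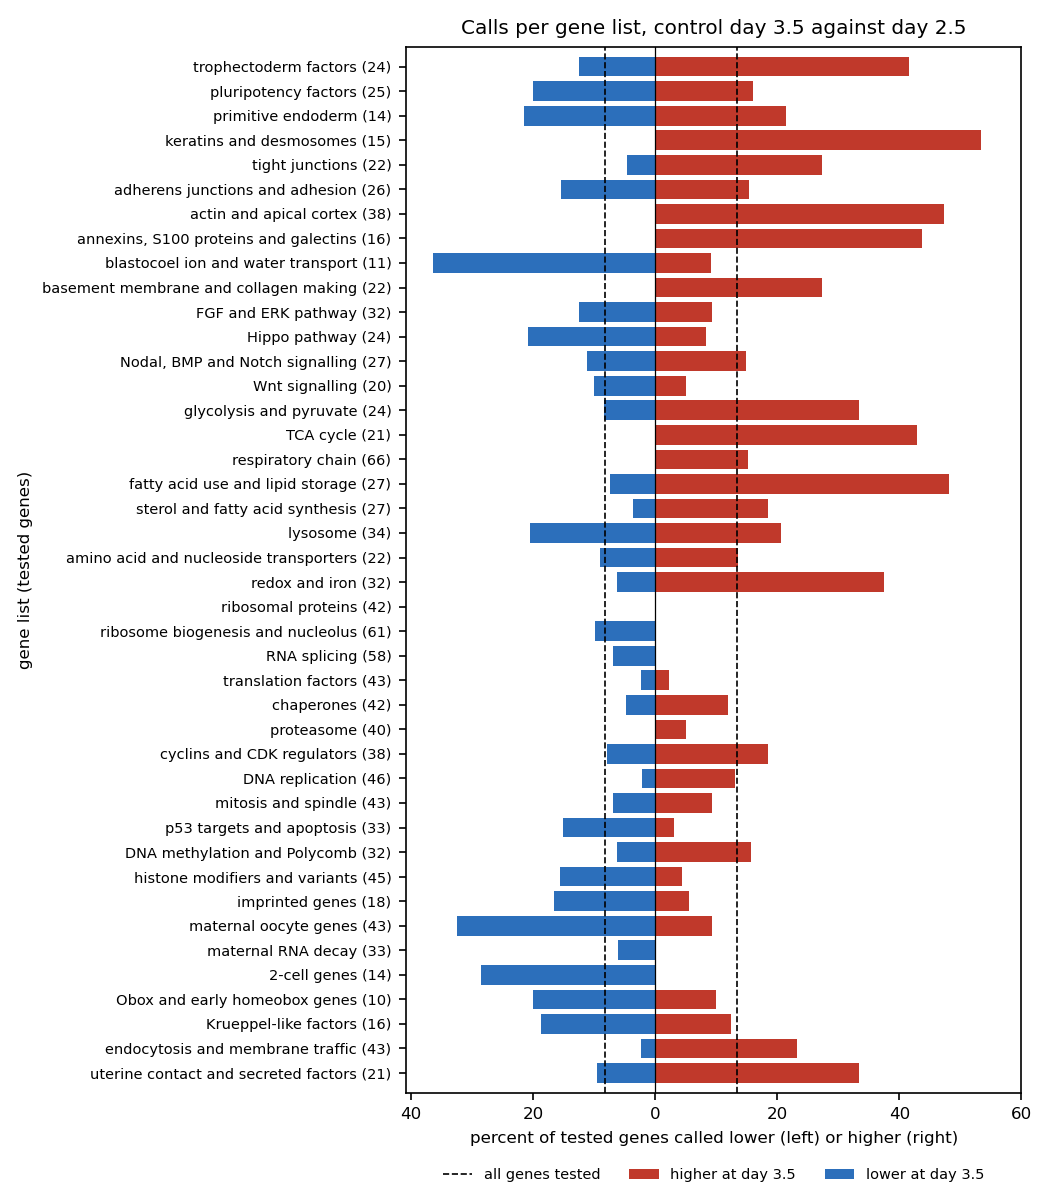
Percent of the tested genes of each list that were called higher (red, right) or lower (blue, left) at control day 3.5 than at day 2.5; the number tested stands in parentheses. Dashed lines mark the shares over all genes, 13.4% higher and 8.28% lower. Keratins and desmosomes, fatty acid use and actin genes reach far past the right line, and blastocoel transport and maternal oocyte genes past the left.

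Lists of energy metabolism held more rises than falls, as did all genes (13.4% and 8.28%). Of 27 genes of fatty acid use and lipid storage, 13 were higher and 2 lower (median 1.26), and with each array left out 10, 8, 6 and 11 were higher and 2 lower each time. Cpt2, which hands fatty acids to mitochondrial oxidation, rose from 3.07 and 3.67 to 7.43 and 6.77 (3.72 ± 0.41, adjusted p = 4.96e-04), from a start near background. Fabp3, a fatty acid carrier, rose from 8.20 and 7.46 to 11.90 and 11.07 (3.66 ± 0.52, adjusted p = 0.00137). Plin2, which coats lipid droplets, rose from 8.00 and 7.39 to 10.68 and 9.59, and Cpt1a, the entry step of mitochondrial oxidation, from 6.88 and 7.17 to 9.22 and 8.56. Against these, Acsl4, which activates arachidonic acid, fell from 11.35 and 11.59 to 8.16 and 9.35 (-2.72 ± 0.40, adjusted p = 0.00163). Dgat2, which makes triglyceride, fell from 7.67 and 7.80 to 5.16 and 5.93. Of 27 genes of sterol and fatty acid synthesis 5 were higher and 1 lower (3, 4, 3 and 3 higher and none lower with each array left out, and 2 lower with the replicate block or median centring), and the desaturases Scd1 and Scd2 rose by 2.83 ± 0.37 and 3.54 ± 0.51 (adjusted p = 0.00103 and 0.00139).

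Of 24 glycolysis and pyruvate genes, 8 were higher and 2 lower (6, 4, 3 and 7 higher and 1, 2, 1 and 3 lower with each array left out; median 0.99), and with median centring 6 and 4. Gapdh, measured by the array's 3′ control probe set, rose from 8.58 and 7.36 to 12.45 and 11.78 (4.14 ± 0.43, adjusted p = 3.21e-04), and its 3 probe sets rose by 3.80 to 4.14. A gene often used as a reference was therefore among the 15 largest rises. Tpi1, triose phosphate isomerase, rose from 6.10 and 5.02 to 8.58 and 7.99, and Slc2a3, a glucose carrier, from 10.54 and 10.36 to 12.63 and 12.32. Slc2a1, another glucose carrier, differed by 2.38 ± 0.53 (adjusted p = 0.0105), a call that ended without day 2.5 replicate 2 or day 3.5 replicate 1. Ldhb, a lactate dehydrogenase subunit, fell from 8.79 and 9.54 to 5.92 and 6.42 (-2.99 ± 0.47, adjusted p = 0.00203). Hk1 differed by -1.81 ± 0.38 (adjusted p = 0.00795), a call that ended without day 2.5 replicate 1 or day 3.5 replicate 1.

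The TCA cycle had 9 of 21 genes higher and none lower (6, 7, 3 and 8 with each array left out), and 20 of the 21 differences were positive with a median of 1.14. Idh3a, a subunit of the isocitrate dehydrogenase of the cycle, rose from 8.83 and 8.79 to 11.84 and 11.12 (2.67 ± 0.32, adjusted p = 6.06e-04), with its 3 probe sets between 0.35 and 2.67. Mdh1, the cytosolic malate dehydrogenase, rose from 9.82 and 9.55 to 12.11 and 11.51. The respiratory chain moved less, with 15.2% of its genes higher, near the 13.4% of all genes. Of 66 genes 10 were higher and none lower, 62 differences were positive and the median was 0.48, but no call held, and without day 3.5 replicate 1 the count was 0 (3, 1 and 4 without the others). It was 19 with the replicate block and 5 with median centring. Of 32 redox and iron genes 12 were higher and 2 lower (9, 7, 5 and 12 higher and 0, 0, 0 and 2 lower). Akr1b8, an aldo-keto reductase, rose from 8.40 and 8.02 to 12.24 and 11.21 (3.52 ± 0.41, adjusted p = 5.42e-04). Cat, catalase, rose from 7.14 and 6.93 to 10.40 and 10.07 (3.20 ± 0.32, adjusted p = 2.85e-04), and Gstp1, a glutathione transferase, from 9.32 and 8.99 to 12.21 and 11.33.

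Membrane traffic and secretion also held rises. The shares higher and lower were 23.3% and 2.33% for traffic and 20.6% each for lysosome genes. For uterine contact and secreted factors they were 33.3% and 9.52%, beside 13.4% and 8.28% of all genes. Of 43 endocytosis and traffic genes 10 were higher and 1 lower (5, 4, 4 and 5 higher and 0, 1, 0 and 0 lower with each array left out), and 2 were lower with the block or with centring. Rab17, Lrp2 and Myo5b were the held rises. Of 34 lysosome genes 7 were higher and 7 lower (4, 2, 2 and 6 higher and 3, 3, 2 and 3 lower), with the replicate block 11 and 9 and with median centring 4 and 8. Neu1, a sialidase, rose from 4.37 and 4.31 to 7.03 and 6.19 (2.28 ± 0.35, adjusted p = 0.00195). Ctsh, cathepsin H, fell from 8.85 and 8.49 to 6.29 and 7.07 (-1.99 ± 0.35, adjusted p = 0.00346), and Ctsl, cathepsin L, from 13.39 and 13.42 to 12.33 and 12.14. Among 21 genes of uterine contact and secreted factors 7 were higher and 2 lower (7, 5, 4 and 6 higher and 2, 1, 1 and 1 lower). Tmprss2, a membrane serine protease, rose from 2.82 and 2.70 to 8.01 and 6.63 (4.56 ± 0.56, adjusted p = 7.41e-04), with its 3 probe sets between 0.55 and 4.56. Ptges, which makes prostaglandin E, rose from 4.60 and 4.17 to 8.24 and 7.72 (3.59 ± 0.42, adjusted p = 5.41e-04). Insr, the insulin receptor, rose from 3.08 and 2.75 to 5.73 and 5.67, from a start near background. Erbb3, a receptor of the EGF family, rose from 8.42 and 8.72 to 10.69 and 10.53.

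Genes of RNA and protein synthesis had few calls. Of all genes, 13.4% were higher and 8.28% lower. Of 42 ribosomal protein genes tested none was called, the differences ran from -0.52 to 0.16, and the median was -0.03. Of 61 genes of ribosome biogenesis and the nucleolus none was higher and 6 lower, with 10 positive differences and a median of -0.47, and with each array left out 1, 2, 1 and 3 were lower. With the replicate block 20 were lower and with median centring 14. Wdr43, a nucleolar protein of rRNA synthesis, fell from 11.64 and 11.27 to 9.28 and 9.43 (-2.10 ± 0.35, adjusted p = 0.00260). Of 58 splicing genes none was higher and 4 lower (0, 0, 0 and 1 with each array left out, 7 with the block or with centring). Of 43 translation factors 1 was higher and 1 lower: Eif4a2 at 0.90 ± 0.25 (adjusted p = 0.0280, ended without any of the 4 arrays and with median centring, adjusted p = 0.0691) and Eif4e at -1.45 ± 0.33 (adjusted p = 0.0122, ended without replicate 1 of either day). In the smaller fits none was higher and 0, 1, 0 and 1 were lower, with the replicate block 2 and 3 were called and with median centring 0 and 3. Proteasome genes had 2 of 40 higher and none lower, with 36 positive differences and a median of 0.39. With each array left out 1, 0, 0 and 2 were called, with the replicate block 7 and with median centring 1. Among 42 chaperones 5 were higher and 2 lower (4, 0, 0 and 4 higher and 1, 2, 1 and 1 lower with each array left out, 10 higher with the block), and Dnajb9, a chaperone of the endoplasmic reticulum, fell from 12.52 and 12.62 to 10.11 and 10.84. Xbp1, a transcription factor of the secretory pathway, rose from 5.99 and 6.23 to 9.79 and 8.86 (3.22 ± 0.43, adjusted p = 0.00103).

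Cell cycle lists held both rises and falls. Of 38 cyclins and regulators 7 were higher and 3 lower, of 46 DNA replication genes 6 and 1, and of 43 mitosis and spindle genes 4 and 3. The shares called in either direction were 26.3%, 15.2% and 16.3%, beside 21.6% of all genes. Across the smaller fits 4, 2, 1 and 4 cyclins and regulators were higher and 2, 1, 1 and 2 lower. For DNA replication 3, 2, 1 and 4 were higher and 1, 0, 0 and 1 lower, and for mitosis 2, 1, 0 and 2 were higher and 1 lower each time. With the replicate block the 3 lists had 11 and 7, 13 and 1, and 7 and 6. With median centring they had 6 and 6, 5 and 1, and 2 and 6, so that the balance of the mitosis list turned. Gins2, part of the replicative helicase, rose from 4.24 and 4.01 to 7.20 and 6.17 (2.56 ± 0.35, adjusted p = 0.00117). Cdc25b, a phosphatase that activates cyclin-dependent kinases, fell from 6.77 and 6.64 to 4.84 and 4.67 (-1.95 ± 0.32, adjusted p = 0.00264). Aurkc, the Aurora kinase of oocytes, fell from 10.88 and 11.22 to 7.28 and 9.01 (-2.91 ± 0.48, adjusted p = 0.00255). Fbxw7, which marks cyclin E for destruction, rose from 4.63 and 4.91 to 7.04 and 6.39.

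In chromatin lists, 5 of 32 DNA methylation and Polycomb genes were higher and 2 lower (15.6% and 6.25%, beside 13.4% and 8.28% of all genes). Their median of 0.19 turned to -0.02 with median centring. With the block 5 were higher and 5 lower, with centring 2 and 5, and with each array left out 1, 3, 2 and 2 were higher and 1, 1, 0 and 0 lower. Uhrf1, which brings DNMT1 to newly copied DNA, rose from 5.10 and 6.06 to 8.59 and 8.32 (2.88 ± 0.41, adjusted p = 0.00146). Dnmt1 differed by 1.07 ± 0.31 (adjusted p = 0.0308), a call that ended with median centring (adjusted p = 0.0875) and without day 2.5 replicate 1 or either day 3.5 array. Of 45 histone modifiers and variants 2 were higher and 7 lower, and with each array left out 0, 0, 0 and 1 were higher and 1, 0, 0 and 2 lower. With the block the counts were 5 and 10 and with centring 1 and 9. Of 18 imprinted genes 1 was higher and 3 lower, and with the block 4 and 3. Among them 1, 1, 1 and 2 were higher in the smaller fits and 2, 0, 0 and 1 lower. Slc38a4, an amino acid carrier expressed from the paternal allele, rose from 6.57 and 7.02 to 9.55 and 8.80 (2.38 ± 0.42, adjusted p = 0.00373). Sfmbt2, a paternally expressed Polycomb gene, differed by 3.15 ± 1.07 (adjusted p = 0.0597), and passed with the replicate block (adjusted p = 0.0465). Phlda2 lay at 5.49 and 6.22 and then at 4.05 and 4.65, a difference of -1.51 ± 0.34 (adjusted p = 0.0121) that was not called without day 2.5 replicate 2 or day 3.5 replicate 1.

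Signalling lists held both rises and falls. Of 32 genes of the FGF and ERK pathway 3 were higher and 4 lower (21.9% called, beside 21.6% of all genes), and the median of 0.11 turned to -0.10 with median centring. Spred1, an inhibitor of RAS to ERK signalling, fell from 9.21 and 9.01 to 7.19 and 7.30 (-1.87 ± 0.31, adjusted p = 0.00253). Myc, a growth factor target, fell from 8.00 and 8.09 to 6.32 and 6.35 (-1.71 ± 0.28, adjusted p = 0.00243). Dusp6, the ERK phosphatase, lay at 6.46 and 5.95 and then at 4.72 and 4.55 (-1.57 ± 0.34, adjusted p = 0.00882, ended without replicate 1 of either day). Fgf4, the ligand made by inner cells, lay at 5.24 and 5.47 and then at 5.01 and 5.15 (-0.28 ± 0.37, adjusted p = 0.639), with its 4 probe sets between -1.15 and 0.03. Without each array in turn 0, 0, 1 and 1 of this list were higher and 2, 3, 2 and 3 lower, with the block 6 and 5, and with centring 1 and 4.

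Of 24 Hippo pathway genes 2 were higher and 5 lower, 5 differences were positive and the median was -0.63, the lowest of the signalling lists, but no call held. The shares higher and lower were 8.33% and 20.8%, beside 13.4% and 8.28% of all genes. With the replicate block 10 were lower and with median centring 8. The smaller fits had 0, 1, 0 and 1 higher and 2, 1, 1 and 3 lower. Nf2, an upstream activator of the pathway, lay at 8.48 and 8.49 and then at 7.34 and 7.10 (-1.27 ± 0.28, adjusted p = 0.0104), a call that ended without either day 2.5 array or day 3.5 replicate 2 and, at -0.55, with the mean over its probe sets (adjusted p = 0.146). Yap1, the coactivator that the pathway keeps out of the nucleus, lay at 10.41 and 10.39 and then at 9.71 and 9.44 (-0.82 ± 0.26, adjusted p = 0.0444, ended without any of the 4 arrays). Of 27 Nodal, BMP and Notch genes 4 were higher and 3 lower, none held, and with median centring 1 was higher and the median of 0.08 turned to -0.13. The smaller fits had 2, 0, 0 and 2 of them higher and 2, 2, 0 and 3 lower. Of 20 Wnt genes 1 was higher and 2 lower (0, 0, 0 and 1 higher and 2, 1, 1 and 2 lower). Sfrp1, a secreted Wnt antagonist, fell from 8.47 and 8.15 to 6.47 and 6.88 (-1.63 ± 0.29, adjusted p = 0.00354), with its 5 probe sets between -2.11 and -0.48.

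More oocyte genes fell than rose. Of the 43 oocyte genes tested, 4 were higher and 14 lower, with a median of -0.71 beside 0.09 over all genes. These shares were 9.30% and 32.6%, beside 13.4% and 8.28% of all genes. The 4 smaller fits gave 4, 3, 2 and 3 higher and 11, 6, 5 and 10 lower. Omt2b, an oocyte maturation gene, fell from 8.96 and 8.36 to 3.79 and 3.70 (-4.92 ± 0.49, adjusted p = 2.84e-04). Nlrp14 and Nlrp5, of a family stored in the oocyte, fell from 7.98 and 8.57 to 5.33 and 5.60 and from 6.997 and 7.22 to 4.42 and 4.68. Padi6, a peptidylarginine deiminase of the subcortical maternal complex, fell from 8.57 and 7.85 to 5.78 and 6.16 (-2.24 ± 0.31, adjusted p = 0.00117). Other members rose, Nlrp4c from 7.24 and 7.06 to 10.41 and 10.11 (3.11 ± 0.31, adjusted p = 2.84e-04) and Ooep, also of the subcortical complex, from 5.42 and 5.57 to 7.44 and 7.67. Amhr2, of the cumulus cell list, also fell (-2.65 ± 0.27, adjusted p = 3.21e-04), with the other 12 cumulus genes on the array at 3.97 or less on these 4 arrays, and its part in the oocyte genes' falls was not tested. In maternal RNA decay 2 of 33 genes were lower and none higher (5 lower with the block; 1, 1, 1 and 2 lower and 0, 0, 0 and 1 higher with each array left out), and Btg4, an adaptor of the deadenylase that clears oocyte messages, fell from 6.97 and 7.35 to 4.07 and 4.46 (-2.89 ± 0.29, adjusted p = 2.85e-04).

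No tested gene of the 2-cell list had a positive difference. Of 14 tested 4 were lower, the median was -1.31 and the highest difference was -0.22. The share lower was 28.6%, beside 8.28% of all genes. In the smaller fits 2, 2, 2 and 4 were lower. Sp110, a nuclear body protein, fell from 11.44 and 11.23 to 7.63 and 8.36 (-3.34 ± 0.53, adjusted p = 0.00216) and Zscan5b from 8.89 and 8.57 to 5.90 and 6.33 (-2.61 ± 0.29, adjusted p = 5.05e-04). Of 10 Obox and early homeobox genes 1 was higher and 2 lower, and 4 were lower with the block or with centring. In every smaller fit 1 was higher, and 2, 2, 2 and 3 were lower. Obox6 lay at 13.18 and 13.26 and then at 8.37 and 11.01 (-3.53 ± 0.63, adjusted p = 0.00367), so its day 3.5 replicates lay 2.64 apart. Rhox5, an X-linked homeobox gene, rose from 7.68 and 8.18 to 9.78 and 10.03 (1.98 ± 0.34, adjusted p = 0.00335). Of 16 Krüppel-like factors 2 were higher and 3 lower (5 lower with the block or with centring; 2, 1, 1 and 2 higher and 3, 2, 2 and 2 lower with each array left out), with Klf6 rising and Klf17 and Klf2 falling in all 5 fits.

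Embryos released from U0126 reached the same labelled stages, morula and blastocyst, a day later at day 4.5, on arrays not shared with the control step. By label this released step started from 8 cells at day 3.5, and the control step from 4 to 8 cells. Starting levels also differed for some genes. Krt8 had a mean of 13.18 at released day 3.5, beside 9.59 and 13.41 at control day 2.5 and day 3.5. For Adh1 these means were 6.73, 4.24 and 8.96. Both steps were tested with the same spread per gene, pooled over all 12 arrays. A gene of low spread is therefore more easily called in both, and the part of this in the overlap was not tested. Of the 1326 control rises, 353 (26.6%) were also higher in the released step, beside 7.37% of all genes. They made up 48.2% of the 732 released rises, beside the 13.4% of all genes that were higher in the control step. Of the 822 control falls, 251 (30.5%) were also lower in the released step, beside 6.37% of all genes. They made up 39.7% of the 633 released falls, beside the 8.28% of all genes that were lower in the control step. Opposite calls numbered 17 among the control rises and 5 among the control falls. All 15 of the largest rises had a positive released difference and 6 of them passed. All 15 of the largest falls had a negative one and 13 passed. Adh1 differed by 4.71 ± 0.85 in the control step and by 6.58 ± 0.85 in the released step (adjusted p = 0.00391 and 0.00126). Obox6 differed by -3.53 ± 0.63 and -4.59 ± 0.63 (adjusted p = 0.00367 and 0.00155). Cnpy2, at 4.54 ± 0.37 and 0.70 ± 0.37, differed between the steps (limma interaction, adjusted p = 0.00924; 2.34% of all genes were called, 1.02% with the more positive and 1.32% with the more negative released step), and lay at 10.43 in released embryos already at day 3.5. Among the largest falls the steps differed for Dynap (adjusted p = 0.00924), and both calls held with each of the 8 arrays left out. The steps also differed for Elovl7, Ezr and Gapdh (adjusted p = 0.0157, 0.0498 and 0.0336), but these calls held in 4, 0 and 1 of the 8 fits. The released step itself had 1365 calls, between 321 and 759 with 1 of its arrays left out and 2165 with the replicate block.

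**Figure D4:**
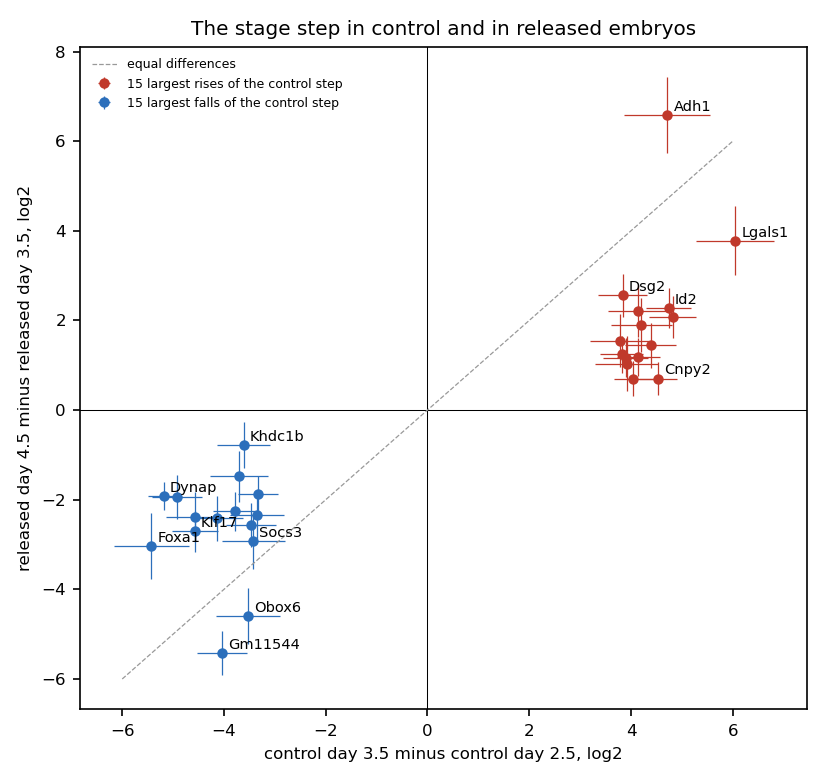
Difference of the control step, day 3.5 minus day 2.5 (x axis), and of the released step, day 4.5 minus day 3.5 (y axis), in log2 units for the 15 largest rises (red) and 15 largest falls (blue) of the control step, with standard errors from limma as bars. The 2 steps share no array. All 30 genes have the same sign in both, and Cnpy2 lies near 0 on the y axis.

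Across the 6 groups the genes of this step followed several courses. Krt8 lay at a mean of 3.80 at day 1.5 and 9.59 at day 2.5, before 13.41 at day 3.5, and lay at 6.40 in arrested, 13.18 in released day 3.5 and 14.42 in released day 4.5 embryos. Id2 lay at 7.68 at day 1.5 and 7.43 at day 2.5 before 12.17 at day 3.5. Foxa1 was at 7.51 at day 1.5, at 10.77 at day 2.5 and at 5.34 at day 3.5, and its mean was highest at day 2.5 among the controls. Klf17 went from 13.88 through 11.32 to 6.75 over the 3 control days and lay at 12.89 in arrested embryos. Obox6 lay between 12.39 and 13.22 in controls of the first 2 days and in arrested embryos, and at 6.77 in released day 4.5 embryos. Lgals1, at 10.83 at control day 3.5, reached 13.90 in released day 4.5 embryos. These genes were chosen for display after their values were seen.

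**Figure D5:**
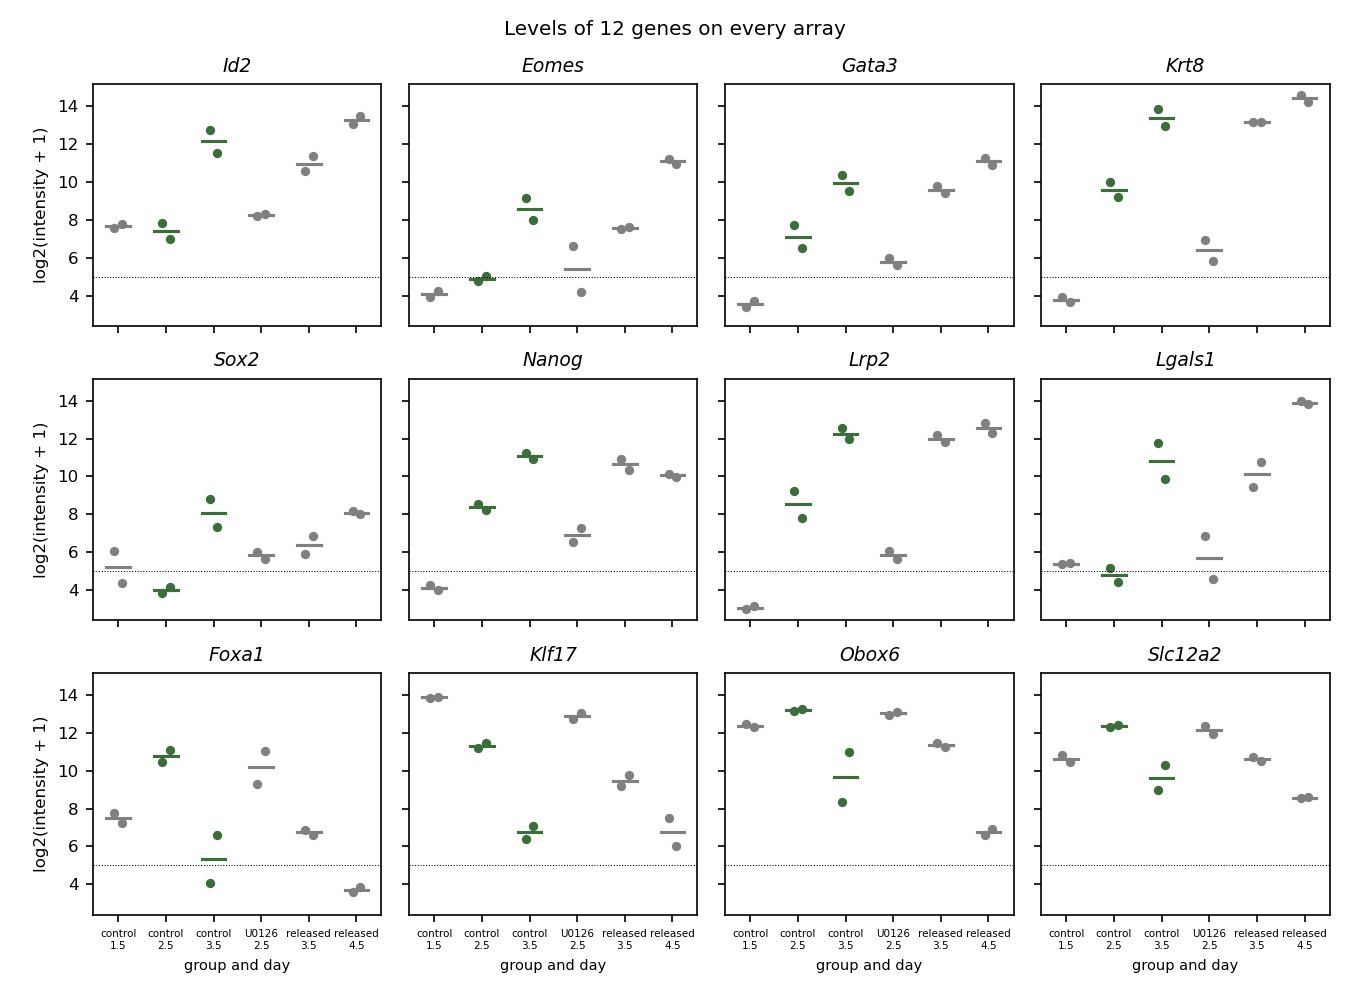
Level of 12 genes, as log2(intensity + 1), on each of the 12 arrays by group and day. Points are arrays and bars the mean of the 2 arrays of a group, with control day 2.5 and day 3.5 in green, the other groups in grey and the level of 5 dotted. Foxa1 stands highest at control day 2.5 and Krt8 rises in both control steps.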

How the data were processed

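The deposited table holds linear intensity values for 45101 probe sets on 12 Affymetrix Mouse Genome 430 2.0 arrays; the submitters' processing notes name GCRMA, and the series text names GCOS 1.2 and GeneSpring 7.3. Labelling used 2 cycles from 0.1 µg of total RNA, per the labels' protocols. Any further scaling by the authors was not given in the sources used here, and the number of arrays limits the precision (median standard error 0.348). Each of 18194 named genes was represented by its probe set of highest mean level. Values were taken as log2(intensity + 1) with no further normalization, and genes at or above 5 on at least 2 arrays (9930) were tested. All 12 arrays entered 1 limma 3.58.1 model (R 4.3.3) with a mean per group; 6 residual degrees of freedom were joined by 4.51 from the prior, and p-values were Benjamini-Hochberg adjusted over all tested genes at a threshold of 0.05. The fit was also run on simulated arrays with independent noise. They lack the shared deviations of same-numbered samples, so that run does not cover their effect on the counts.

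The genes, lists and alternatives were chosen with earlier results of these data known. Of 1617 entries in 42 lists, 1469 matched the array and 1290 were tested. Named genes are the 15 largest rises and 15 largest falls among calls that held with each of the 4 arrays left out, ranked after raising group means under 5 to 5, up to 6 held members of each list in each direction with up to 2 well-known uncalled ones, and the 5 genes of each sign whose control and released steps differed most. Other genes were named after their values were seen, among them each call given as one that did not hold. The replicate numbers pair the samples: deviations of same-numbered samples correlated in all 15 pairs of groups (0.125 to 0.417; 0.239 between the 2 days compared), and the series text speaks of 2 independent experiments. Promoters are from RefSeq (GRCm38.p6), matched by symbol for 8157 tested genes. Alternatives were pseudocount 16, no filter, a level of 7, median centring, only the 4 arrays, the replicate block, the mean over probe sets, a variance trend and leaving out arrays; the block combined with centring, and the block for the released step, were added after seeing the data.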

Additional observations from a re-analysis of the deposited data

Results flagged for a closer look

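The control step and the released step differed in 232 genes by limma's interaction test (2.34% of those tested), 101 with the more positive difference in the released step and 131 in the control step. The 5 of each sign with the largest difference between the steps are given here as released minus control, in log2 units with standard errors.

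Elf5, Gm4926 and Gulp1 did not pass in the control step and stood higher at released day 4.5. Elf5, an ETS factor of trophoblast stem cells, lay at 2.50 and 2.50 at control day 2.5, at 2.77 and 2.73 at control day 3.5, and at 8.15 and 9.73 at released day 4.5 (5.53 ± 0.60, adjusted p = 0.00393). Gm4926 lay at 4.07 and 3.92 at control day 3.5 and at 10.51 and 11.22 at released day 4.5 (6.59 ± 0.53, adjusted p = 0.00117). Gulp1, an adaptor for engulfment, lay at 5.01 and 3.39 at control day 3.5 and at 8.10 and 9.26 at released day 4.5 (4.16 ± 0.74, adjusted p = 0.0211), and in the control step it passed without day 3.5 replicate 2 (1.75, adjusted p = 0.0454). Released day 4.5 embryos were a day older than the control day 3.5 embryos, and age and release cannot be told apart here. The call held in all 8 fits that leave out 1 array for Elf5 and Gm4926 and in 3 for Gulp1.

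Limch1, an actomyosin regulator, fell in the control step from 7.68 and 7.79 to 4.43 and 5.77 and went from 5.40 and 5.64 to 6.93 and 7.62 in the released step (4.39 ± 0.78, adjusted p = 0.0211, held in 2 of 8 fits). Fam189a2 fell from 5.56 and 5.92 to 3.73 and 3.36 and went from 3.41 and 3.77 to 5.68 and 5.52 (4.20 ± 0.65, adjusted p = 0.0130, held in 5 of 8). Its higher means, 5.74 at control day 2.5 and 5.60 at released day 4.5, lay little above the level of 5.

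Lama3 had a rise in the control step that the released step did not match (-4.80 ± 0.41, adjusted p = 0.00117, held in 8 of 8 fits). It went from 3.19 and 2.62 to 7.52 and 7.05 in controls and stood at 6.48 and 6.26 and then 6.15 and 5.75 in released embryos. Rfx4, a winged-helix factor, went from 3.32 and 3.40 to 7.33 and 8.05 in controls and was at 6.52 and 7.38 and then 6.43 and 7.16 in released embryos (-4.48 ± 0.57, adjusted p = 0.00717, held in 8 of 8). For both genes the released day 3.5 arrays stood above the control day 2.5 arrays. Tex19.2 rose from 6.16 and 4.89 to 8.89 and 8.30 in controls and went from 8.59 and 8.48 to 7.45 and 6.76 after release (-4.50 ± 0.63, adjusted p = 0.00959, held in 7 of 8). Hmox1, heme oxygenase 1, went from 2.79 and 2.63 to 5.58 and 4.35 in controls. Both control means, 2.71 and 4.97, lay under 5, so that rise is close to background. After release Hmox1 went from 6.49 and 5.95 to 3.25 and 3.92 (-4.90 ± 0.69, adjusted p = 0.00959, held in 8 of 8). Pramel18 lay at 3.72 and 4.64 at control day 3.5 and went from 6.84 and 9.13 to 3.98 and 3.82 after release (-4.48 ± 0.98, adjusted p = 0.0428, held in 1 of 8).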

How the results depend on the processing

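Calls of the control step (2148) numbered 2243 with pseudocount 16, 1926 with no filter, 1872 at a level of 7, 2123 with median centring, 1955 from the 4 arrays alone, 3102 with the replicate block, 2084 with the mean over probe sets and 2278 with a variance trend. With the replicate block and median centring together 1722 genes were lower, beside 822. With 1 of the 4 arrays left out, 677 to 1565 genes were called, 423 to 983 higher and 254 to 582 lower, where the lone array is assumed to vary like the other groups. In the released step (1365 calls, 633 lower) the replicate block gave 2165 calls, 1076 of them lower, and the block with centring 2219 and 1179. Leaving out 1 array gave 321 to 759 calls, 200 to 428 higher and 121 to 331 lower. The difference between the steps (232 calls, 101 higher and 131 lower) gave 615 calls with the replicate block, 250 higher and 365 lower, and 624 with the block and centring, 350 higher and 274 lower. With 1 array left out it gave 30 to 115 calls, 15 to 60 higher and 15 to 55 lower. The cause of these changes was not tested. Pou5f1 turned its sign, to -0.095 with median centring, with or without the block, and ranged from -0.33 to 0.56 with 1 array left out. Gm4926 (-0.028 in the control step) ranged from -0.10 to 0.045 and Pramel18 (0.39) from -0.067 to 0.85, and none of the 3 passed in the fit of all arrays. The replicate block added the calls of Tead4 and Sfmbt2 among the genes named and ended none. With the mean over probe sets, 55 of 200 called genes examined singly had a difference more than 1.5 times smaller, 16 calls ended and no sign turned. Among calls that did not hold, those of Atp1b3, Dnmt1, Eif4a2, Elf3, Rsph1 and Yap1 ended with the 4 arrays alone (adjusted p = 0.0548 to 0.0658), and those of Atp1b3, Btg1, Elf3, Esrrb, Gadd45g, Prdm14 and Rsph1 with no filter (0.0531 to 0.0980). With 2 arrays per group, changes of about 1 log2 unit lie near the smallest that were called (0.71).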

Other observations

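Genes of p53 targets and apoptosis held more falls than rises. Of 33 tested 1 was higher and 5 lower (3.03% and 15.2%, beside 13.4% and 8.28% of all genes), with a median of -0.29, but no call held with each array left out, and without either day 3.5 replicate 1 or day 2.5 replicate 2 none was called. Btg1, a brake on proliferation, lay at 11.87 and 12.11 at day 2.5 and at 10.34 and 10.72 at day 3.5 (-1.46 ± 0.44, limma adjusted p = 0.0373, ended without any of the 4 arrays). Gadd45g, a stress response gene, was the rise, from 3.57 and 3.49 to 5.81 and 4.93 (1.84 ± 0.54, adjusted p = 0.0350, ended without either day 2.5 array or day 3.5 replicate 1).

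Of 22 amino acid and nucleoside transporters 3 were higher and 2 lower, shares of 13.6% and 9.09% that lie near those of all genes (13.4% and 8.28%). The counts were 5 and 3 with the replicate block and 2 and 5 with median centring. Slc38a1, a glutamine carrier, rose from 5.01 and 5.19 to 7.78 and 7.44 (2.51 ± 0.39, adjusted p = 0.00199), beside the rise of Slc38a4. With each array left out, in the order day 2.5 replicates 1 and 2 and day 3.5 replicates 1 and 2, 3, 2, 2 and 3 were higher and 1, 1, 0 and 1 lower. Among factors outside the lists, Hif1a, the oxygen-sensing subunit, rose from 6.81 and 7.15 to 10.21 and 9.39 (2.82 ± 0.45, adjusted p = 0.00216; 3 probe sets between 0.78 and 3.13), a gene chosen after its values were seen.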
